A study of Sus scrofa with 23 samples.

Results

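ATP-binding cassette (ABC) transporter genes were described in kidney cortex of newborn pigs. Members were all genes whose symbol starts with ABC, a subfamily letter from A to G and a digit, and 41 of the 26687 genes in the count data carried such a symbol. Of these, 38 had at least 10 estimated counts in at least 12 of the 23 libraries and were tested. The related genes CFTR, TAP1 and TAP2 belong to the same superfamily but have other symbols and were not counted as members.

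Each library came from 1 pig, and by genotype label 11 pigs were CFTR-/- (CF), 6 were CFTR+/- (HET) and 6 were CFTR+/+ (WT). By the study's methods, CFTR+/- parents were mated to give the piglets, and gene expression was compared between CF and non-CF pigs. The libraries labelled WT and HET here formed a group of 12 non-CF libraries. The labels give the age as newborn and name no treatment, sex or litter, and because the piglets came from crosses some may have been littermates. Total RNA was sequenced after ribosomal RNA had been depleted, and the tissue is a mixture of tubules, glomeruli, vessels and stroma.

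ABC proteins bind and hydrolyse ATP, and most of them use it to move a substrate across a membrane. In the kidney they export drugs, organic anions and conjugates into urine, move cholesterol and phospholipid out of cells, and serve peroxisomes and mitochondria. CFTR is itself an ABC protein that became a chloride channel, and a few members (ABCE1 and the ABCF proteins) have no membrane part and act on ribosomes.

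Libraries held 32901281 to 52952273 estimated counts, with a median of 44639997. The RNA of CFTR, the targeted gene, went against the labels. It ranged from 1.26 to 3.66 CPM (counts scaled by library size and TMM factors) in the libraries labelled WT, from 9.46 to 17.7 in those labelled HET and from 12.4 to 23.5 in those labelled CF. Every library labelled WT was below every other library, and groups are therefore named by their labels throughout. On multidimensional scaling, the second axis set pigs 1 to 6 and 12 to 18 (called low numbers) apart from pigs 7 to 11 and 19 to 23 (called high numbers). These are the lower and the higher numbers within CF and within non-CF, not a single cut of the pig number. Both ranges held all 3 labels. The Y-linked gene EIF1AY was over 15 CPM in 6 of 11 libraries labelled CF, 5 of 6 labelled HET and 2 of 6 labelled WT, and at most 0.0960 CPM in the others.

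To compare levels between genes, transcript levels in TPM (reads divided by effective length and by their sum in the library) were rescaled so that mRNA transcripts summed to the same total (that of TPM over all transcripts) in each library. On this scale the 41 members together amounted to 1005 ± 50.8 (SD, n = 23). The label means of this sum were 1007 ± 23.9 for WT, 1000.0 ± 80.7 for HET and 1006 ± 46.1 for CF, so they differed by less than the spread between libraries. Subfamily ABCC, which holds the multidrug resistance proteins, made up 30.2% of the sum, ABCB 17.4%, ABCF 14.2%, ABCD 13.7%, ABCA 13.4%, ABCG 5.83% and ABCE 5.35%.

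The highest member was ABCD3, the peroxisomal transporter for branched and long-chain acyl-CoA, with a mean of 91.1 rescaled TPM and a range of 78.5 to 110 over the 23 libraries. ABCC2, an apical exporter of organic anion conjugates in proximal tubule, followed with 82.7 (52.6 to 123). ABCC5, an exporter of nucleotide analogues and other organic anions, had 69.8 (45.2 to 89.7). These 3 ranges overlapped, so their order differed from library to library. Of the 14 transcripts of ABCC5, the one with the largest share of its TPM (25.6%) was only 1189 bases long. TPM gives short transcripts more weight per count, so the place of ABCC5 depends on this annotation.

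Next came ABCB6, a porphyrin transporter, with label means of 63.4 ± 6.08 rescaled TPM in WT, 61.6 ± 5.91 in HET and 60.5 ± 7.90 in CF (SD). ABCC4, which exports cyclic nucleotides and urate, had 56.7 ± 8.18, 63.1 ± 15.7 and 63.2 ± 7.58. ABCF1, a translation factor, had 63.2 ± 2.46, 60.7 ± 5.79 and 58.5 ± 5.94. In each of these genes the label means differed by less than the largest SD.

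ABCG2, the urate and drug exporter of the brush border, followed with 56.3 ± 11.6 in WT, 55.8 ± 7.36 in HET and 53.2 ± 5.46 in CF. ABCE1, which splits ribosomes after termination, had 53.2 ± 10.8, 52.1 ± 9.49 and 54.9 ± 6.51. ABCF3, a cytosolic ATPase of the translation group, had 46.1 ± 5.30, 47.7 ± 2.99 and 47.0 ± 3.75. ABCA1, the cholesterol exporter, was the highest of its subfamily with a mean of 44.3 over all libraries. Neighbours among these genes differed by less than their spread over libraries.

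At the other end, 3 members were under the count filter. ABCB11, the bile salt export pump of the liver, had at most 22 counts in any library, and ABCA12, a lipid transporter of skin, at most 27. ABCG8, the partner of ABCG5 in sterol export, had at most 5 counts and a median of 0, while ABCG5 had 35 to 155 counts and a mean of 1.21 rescaled TPM. These genes lie head to head on chromosome 3, ABCG8 at 96596975 to 96616224 on the minus strand and ABCG5 at 96616304 to 96656893 on the plus strand (Sscrofa11.1, RefSeq annotation). Only 79 bases lie between their annotated starts. That stretch is shown because the pair shares it while only one gene of the pair was detected above the filter; capitals mark a GC box (GGGCGG on either strand).

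chr3:96616225-96616303, plus strand: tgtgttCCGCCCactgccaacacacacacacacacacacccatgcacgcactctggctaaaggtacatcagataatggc

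**Figure D1:**
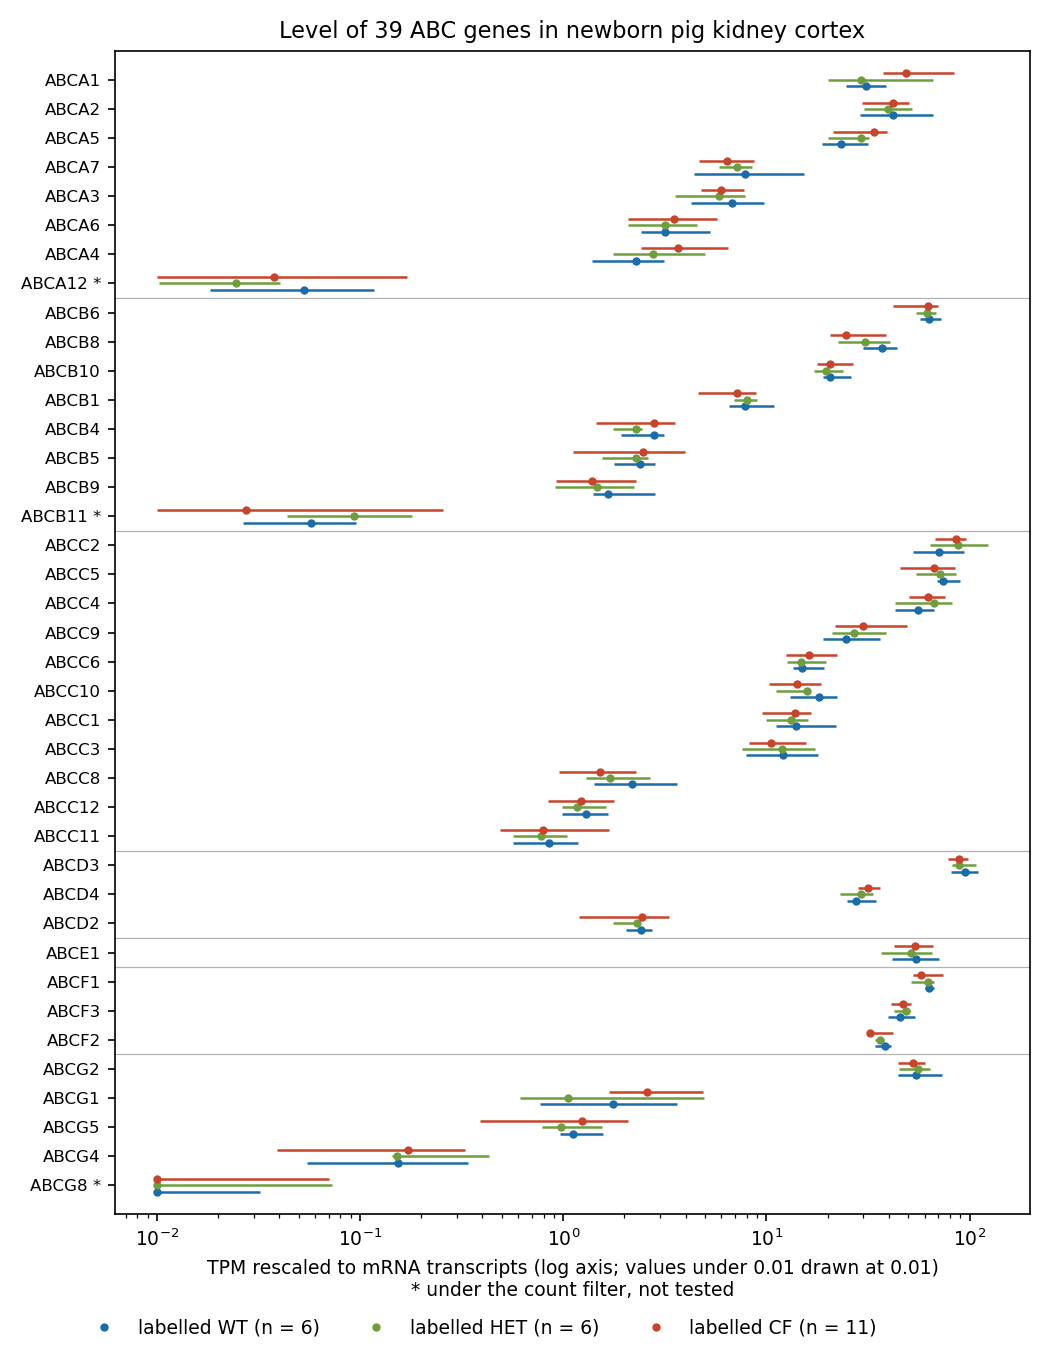
Level of 39 ABC genes, as TPM rescaled to mRNA transcripts on a log axis, with rows grouped by subfamily. Points are medians and lines run from the lowest to the highest library of each label; an asterisk marks the 3 members under the count filter, ABCA12, ABCB11 and ABCG8, which lie below most other rows, and ABCD3 and ABCC2 have the highest means.

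The main comparison asked whether ABC genes differed between libraries labelled CF and non-CF. In edgeR's quasi-likelihood test, with p adjusted over 20880 genes by the Benjamini-Hochberg method, 0 of 38 members had an adjusted p under 0.05, where 0.35% of all genes did. At an unadjusted p under 0.05 there were 7 of 38 members (18.4%), and 13.8% of all genes passed that limit. Of the 7, ABCA1, ABCA4, ABCA5 and ABCG1 had higher values in CF, and ABCB8, ABCC8 and ABCC5 lower values. DESeq2 called ABCA1 and ABCA4, and 2.31% of all genes. With the pig number range as a term, edgeR called ABCA1 and 0.718% of all genes. In the exact Mann-Whitney U test, the test the study used, 0 members and 0.211% of all genes were called, with 6 members and 11.8% of all genes at an unadjusted p under 0.05.

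Over the 38 members, 15 had a higher and 23 a lower fitted level in CF, with a median log2 fold change of -0.03 (all genes: 0.00). The median size of the change, regardless of sign, was 0.12 log2 for members and 0.09 for all genes. For 36 of 38 members the 95% interval lay within 1 log2 unit of 0 on both sides, and for 29 it lay within 0.5. Differences smaller than these intervals were not resolved with 23 libraries.

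**Figure D2:**
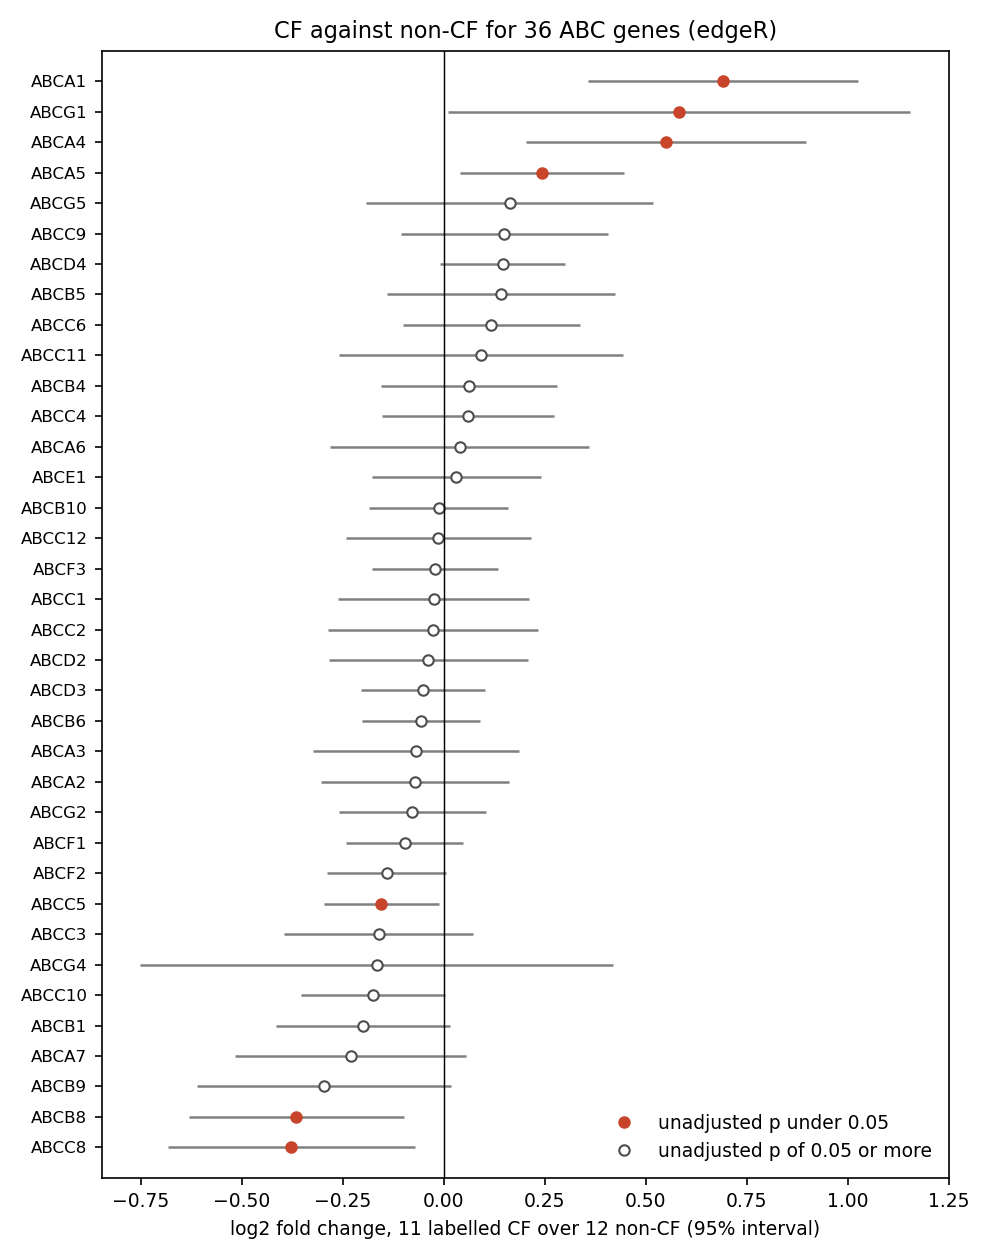
Log2 fold change of 36 tested ABC genes, 11 libraries labelled CF over 12 non-CF, from the edgeR fit, with 95% intervals. Filled points have an unadjusted p under 0.05 (7 genes); ABCA1 at 0.69, ABCG1 at 0.58 and ABCA4 at 0.55 lie farthest to the right and ABCC8 at -0.38 and ABCB8 at -0.37 farthest to the left.

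By label pairs, 0 of 38 members were called for CF against WT, where 0.359% of all genes were, and 8 members had an unadjusted p under 0.05 against 14.3% of all genes. The 8 were ABCA1, ABCA4, ABCA5 and ABCD4 with higher values and ABCB8, ABCC10, ABCC8 and ABCB9 with lower values in CF. For CF against HET, 0 members were called (0.0192% of all genes) and 1 member, ABCA1, had an unadjusted p under 0.05 (10.1% of all genes). HET against WT gave 0 called members (0.00479% of all genes) and 2 under the unadjusted limit, ABCC2 and ABCA4 (8.04% of all genes). For CF against WT, DESeq2 called ABCA1, ABCA4 and ABCA5, and 2.75% of all genes, and edgeR with the pig number range as a term called ABCA1 and ABCA4, and 1.03% of all genes. DESeq2 called 0 members for CF against HET (0.268% of all genes) and for HET against WT (0.158%). These comparisons share libraries, so their values are not independent of each other.

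Among genes of cholesterol and phospholipid export, 6 of 7 members were tested, 4 with higher and 2 with lower values in CF, and 0 were called. ABCA1 moves cellular cholesterol and phospholipid onto lipid-poor apolipoprotein A-I and is a classical target of the liver X receptors (LXR). In the libraries labelled WT, ABCA1 was at 99.9, 114, 115, 115, 131 and 131 CPM. In those labelled HET it was at 87.8, 92.1, 99.6, 137, 213 and 250 CPM. Those labelled CF ranged from 142 to 319 with a median of 198. Every CF library was above every WT library. The HET libraries spread from below the lowest WT library into the CF range, and none of them lay within the WT range.

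Such separation of CF above WT was seen for 0.115% of the 20880 genes and, among members, for ABCA1 alone. Against all non-CF libraries the fitted log2 fold change was 0.69 (SE 0.16, edgeR adjusted p = 0.0538), and against WT it was 0.86 (SE 0.20, edgeR adjusted p = 0.0528). CF against HET gave 0.54 (SE 0.20, edgeR adjusted p = 0.382) and HET against WT 0.32 (SE 0.22, edgeR adjusted p = 0.729). The value for CF against non-CF missed the limit by little and moved to either side of it with the settings. Its adjusted p ranged from 0.0014 with high pig numbers only to 0.456 with the HET libraries alone as control. DESeq2 gave an adjusted p of 0.00421, the pig number range as a term 0.0254 and WT alone as control 0.0117. With 1 library left out, ABCA1 was called without CF pig 4 (edgeR adjusted p = 0.0286), HET pig 13 (edgeR adjusted p = 0.0238) or HET pig 15 (edgeR adjusted p = 0.0123). Without HET pig 13 or 15, which held the highest HET values, the log2 fold change was 0.78 or 0.81. In bulk tissue, more RNA per cell and more cells that carry the RNA cannot be told apart.

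ABCG1 adds cholesterol to maturing high-density lipoprotein and is another LXR target. Libraries labelled WT had 1.91, 2.93, 3.96, 4.14, 5.08 and 7.60 CPM. Those labelled HET had 1.55, 2.13, 2.33, 3.05, 9.14 and 11.4 CPM, and those labelled CF 3.90 to 10.3 with a median of 6.96. The labels overlapped, but all 11 CF libraries were above the non-CF median of 3.51. For CF against non-CF the log2 fold change was 0.58 (SE 0.28, edgeR adjusted p = 0.352).

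Within high pig numbers the edgeR fit with the number range and its interaction called 2 members, ABCG1 and ABCA1, where 1.16% of all genes were called, and within low numbers it called 0, against 0.307% of all genes. For ABCG1 with high numbers, CF libraries were between 4.81 and 6.96 CPM and non-CF libraries between 1.55 and 2.93, with no overlap. With low numbers, CF libraries lay between 3.90 and 10.3 and non-CF libraries between 3.05 and 11.4. Within the fit the log2 fold change was 1.45 (SE 0.30, edgeR adjusted p = 0.0153) for high and 0.27 (SE 0.25, edgeR adjusted p = 0.745) for low numbers. The call with high numbers was kept without each library in turn, with an edgeR adjusted p of 0.00766 to 0.0484. The difference of 1.18 (SE 0.39) between the ranges had an unadjusted p of 0.00578 and an edgeR adjusted p of 0.258, so the change was not shown to differ between them.

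ABCA1 had CF libraries between 175 and 210 CPM and non-CF libraries between 87.8 and 131 among high numbers. Among low numbers the ranges were 142 to 319 and 114 to 250. CF libraries lay above all non-CF libraries with high numbers for ABCA1 and ABCG1 among members, where 2.23% of all genes did so, and with low numbers for 0 members, where 0.489% of all genes did. Log2 fold changes of ABCA1 were 0.93 (SE 0.22, edgeR adjusted p = 0.0320) and 0.57 (SE 0.19, edgeR adjusted p = 0.199) in high and low numbers. The call with high numbers was lost when CF pig 7, 9 or 11, HET pig 19, 20 or 21 or WT pig 22 was left out, with an edgeR adjusted p of 0.0674 to 0.097 and a log2 fold change of 0.88 to 0.93. A fit of the high-number libraries alone called the same 2 members, and 2.3% of all genes. For ABCA1 the difference between the ranges was 0.36, with an unadjusted p of 0.223.

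**Figure D3:**
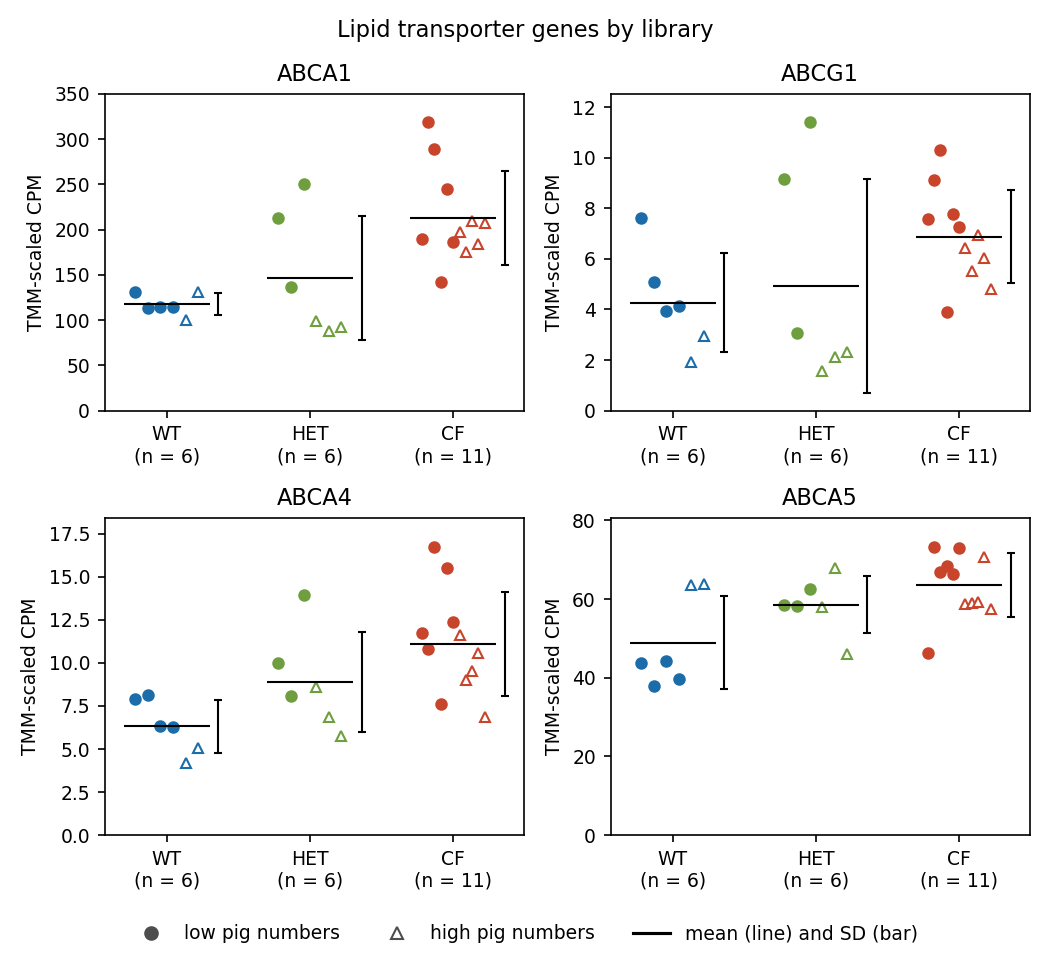
TMM-scaled CPM of ABCA1, ABCG1, ABCA4 and ABCA5 in each of the 23 libraries by label, with filled circles for low and open triangles for high pig numbers. Lines are label means and bars SD; the 11 CF points of ABCA1 (142 to 319 CPM) all lie above the 6 WT points (99.9 to 131), and the open triangles of ABCG1 show no overlap between CF and the other labels.

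ABCA1 and ABCG1 varied together over the 23 libraries. On log2 CPM, Pearson's r was 0.865 and Spearman's rho 0.854, each with a permutation p of 1e-05, the smallest that 100000 resamples can give, and an adjusted p of 4e-05 over the 8 gene pairs computed. Without the pair of libraries farthest from the ABCA1 median r was 0.829. Within low numbers r was 0.813 (n = 13), and within high numbers it was 0.944 (n = 10). Both genes were read from the same libraries. The labels were pooled, so r also holds the differences between labels. With high numbers, CF and non-CF libraries did not overlap for either gene. Correlations within a label were not computed.

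The 250 bases before the annotated start of ABCA1 are shown because this member had the largest fold change for CF against non-CF. Capitals mark GC boxes on either strand, at 3 places. Over all 20638 protein-coding genes with such a window on Sscrofa11.1, 44.5% held a GC box, and 18 of 41 members (43.9%) did. A common form of the LXR element, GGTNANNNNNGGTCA on either strand, was found in 0 members and in 0.141% of all windows. Only these 250 bases were read, and no sequence farther upstream or past the annotated start. With so rare a form, 0 of 41 windows cannot tell whether a member carries such an element. The antioxidant element core TGACNNNGC, again on either strand, occurred in 5 members (12.2%) and in 9.85% of all windows.

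ABCA1, chr1:246278493-246278742, minus strand: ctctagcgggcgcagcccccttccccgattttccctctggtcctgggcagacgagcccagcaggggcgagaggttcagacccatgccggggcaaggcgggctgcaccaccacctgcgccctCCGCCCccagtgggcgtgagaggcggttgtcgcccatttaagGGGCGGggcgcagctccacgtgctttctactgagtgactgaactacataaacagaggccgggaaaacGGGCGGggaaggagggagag

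A list of 9 genes of LXR signalling and cholesterol efflux that are no members was read beside them. All 9 had higher fitted values in CF than in non-CF, with a median log2 fold change of 0.27 (all genes: -0.004). The list was chosen with earlier results of these data known, so this count is not independent of them. Of these, 4 had an unadjusted p under 0.05 (13.8% of all genes) and 0 were called by edgeR (0.35% of all genes). MYLIP, an LXR-induced ligase for the low-density lipoprotein receptor, had 24.5 to 32.8 CPM in WT, 29.6 to 44.7 in HET and 27.8 to 51.2 in CF. Its log2 fold change was 0.35 against all non-CF libraries (edgeR adjusted p = 0.0933) and 0.52 for CF against WT (edgeR adjusted p = 0.0371), where it was the only gene of this list called and 0.359% of all genes were. PLTP, the phospholipid transfer protein, gave 0.34 (edgeR adjusted p = 0.0976) and NR1H3, the gene of LXR alpha, 0.15 (edgeR adjusted p = 0.261) for CF against non-CF. For HET against WT, 5 of the 9 had higher and 4 lower values.

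Macrophages carry much ABCA1 and ABCG1 RNA, so their markers are given here. Of 6 markers, 2 had higher and 4 lower values in CF, 0 were called, and their summed level was 94.5 to 150 CPM in WT, 93.8 to 146 in HET and 90.5 to 197 in CF. CD163, a scavenger receptor of macrophages, gave a log2 fold change of 0.21 and AIF1 of -0.31. The part of such cells in the ABCA1 values was not tested.

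In the remaining members of the export group 0 had an unadjusted p under 0.05. ABCA7, a phospholipid transporter related to ABCA1, had a log2 fold change of -0.23 (95% interval -0.52 to 0.06), ABCB4, the phosphatidylcholine floppase of bile canaliculi, 0.06 (-0.16 to 0.28), and ABCG5 0.16 (-0.19 to 0.52), with 1.87 to 2.74 CPM in WT, 1.60 to 2.89 in HET and 0.828 to 3.61 in CF. ABCG4, a sterol transporter known mainly from brain, had only 2 to 26 counts per library and a change of -0.17 (-0.75 to 0.42). Its levels were 0.0838 to 0.477 CPM in WT, 0.214 to 0.659 in HET and 0.0583 to 0.48 in CF. Of the tested members, ABCG4, ABCG1 and ABCG5 had the widest ratios of highest to lowest library, at 11.0, 8.03 and 5.31 on the rescaled TPM scale, and for ABCG4 these rest on few counts.

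Of the other ABCA lipid transporters, 5 members were tested, 3 with higher and 2 with lower values in CF, and 0 were called. ABCA4, which flips retinal-bound phospholipid in photoreceptors, was at 4.18, 5.05, 6.27, 6.36, 7.88 and 8.13 CPM in WT libraries. HET libraries had 5.75, 6.87, 8.08, 8.63, 10.02 and 13.96 CPM, and CF libraries ranged from 6.88 to 16.7 with a median of 10.8. CF and WT overlapped by a few libraries, HET lay between, and 10 of 11 CF libraries were above the non-CF median. The fit gave log2 fold changes of 0.55 (SE 0.17, edgeR adjusted p = 0.122) for CF against non-CF, 0.82 (SE 0.20, edgeR adjusted p = 0.0572) for CF against WT and 0.49 (SE 0.22, edgeR adjusted p = 0.589) for HET against WT. CF against HET gave 0.33 (SE 0.19, edgeR adjusted p = 0.584), and within low and high numbers the values for ABCA4 were 0.52 and 0.64. With the pig number range as a term CF against WT was called (edgeR adjusted p = 0.0098). DESeq2 gave adjusted p of 0.0408 against non-CF and 0.00351 against WT. Leaving out HET pig 15 called ABCA4 against non-CF (edgeR adjusted p = 0.0389), and leaving out CF pig 4, CF pig 11 or HET pig 15 called it against WT (edgeR adjusted p of 0.0301, 0.0425 and 0.0429).

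ABCA5, a lysosomal lipid transporter, was read by label and by number range. WT libraries were at 37.9, 39.6, 43.9, 44.4, 63.7 and 63.9 CPM, and the highest of these were the 2 with high pig numbers. HET libraries had 46.1 to 67.9 CPM and CF libraries 46.4 to 73.3 with a median of 66.3. The CF libraries differed from non-CF by 0.24 log2 (SE 0.10, edgeR adjusted p = 0.255). It was 0.41 (SE 0.12) within low and 0.03 (SE 0.14) within high numbers, a difference of -0.39 (unadjusted p = 0.0480, edgeR adjusted p = 0.475) that was not called. For CF against WT it was 0.38 (edgeR adjusted p = 0.114), and ABCA5 was called there by DESeq2 (adjusted p = 0.0444) and without WT pig 23 (edgeR adjusted p = 0.0491). ABCA2, ABCA3 and ABCA6 had log2 fold changes of -0.07, -0.07 and 0.04.

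Summed over the subfamily, ABCA genes had 122 ± 24.3 rescaled TPM in WT, 124 ± 31.8 in HET and 147 ± 22.9 in CF, and the ranges of the labels overlapped (96.9 to 164, 96.6 to 176 and 117 to 200). ABCB genes had 188 ± 10.3 in WT, 174 ± 11.0 in HET and 167 ± 12.4 in CF, again with overlapping ranges (170 to 202, 160 to 190 and 143 to 194). These sums were not tested.

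All 11 members of the xenobiotic and conjugate efflux group were tested. Values were higher in CF for 3 and lower for 8, with a median log2 fold change of -0.03, and 0 were called. ABCC5 had 112 to 134 CPM in WT, 107 to 147 in HET and 86.7 to 132 in CF, with medians of 121, 119 and 111. The labels overlapped widely, although 9 of 11 CF libraries were below the non-CF median. Its log2 fold change was -0.15 (SE 0.07, edgeR adjusted p = 0.312), with -0.12 within low and -0.19 within high numbers. ABCC10, an efflux pump with a broad drug spectrum, had 24.2 to 38.2 CPM in WT, 21.8 to 32.9 in HET and 22.1 to 30.8 in CF, with a change of -0.17 (SE 0.09, edgeR adjusted p = 0.373). For ABCC10 this was -0.26 within low and -0.05 within high numbers, and it was -0.08 with HET alone as control and -0.26 with WT alone.

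Among the main apical exporters of the proximal tubule, 0 had an unadjusted p under 0.05 for CF against non-CF. ABCC2 had a log2 fold change of -0.03 (95% interval -0.29 to 0.23), ABCC4 of 0.06 (-0.15 to 0.27), ABCG2 of -0.08 (-0.26 to 0.10) and ABCB1, P-glycoprotein, of -0.20 (-0.42 to 0.01), with 8 of 11 CF libraries below the non-CF median. Basolateral ABCC1 and ABCC3 had -0.02 and -0.16, and ABCC6, which takes part in ATP release and pyrophosphate supply, 0.12. The pair ABCC11 and ABCC12 lies in tandem on chromosome 6 and gave 0.09 and -0.01.

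ABCC2 had the smallest p of all members for HET against WT. WT libraries were at 174, 248, 260, 264, 358 and 362 CPM and HET libraries at 271, 282, 312, 399, 421 and 486. The labels overlapped, and the 2 highest WT libraries were those with high pig numbers. The log2 fold change was 0.38 (SE 0.16, unadjusted p = 0.0258, edgeR adjusted p = 0.574). With the EIF1AY level as a covariate it was 0.47 (edgeR adjusted p = 0.552). The lowest library, WT pig 12, also had the highest share of ribosomal RNA in TPM (4.51%, against a median of 0.362%). Without this library the log2 fold change was 0.28 (SE 0.15, unadjusted p = 0.0866, edgeR adjusted p = 0.847).

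ABCC2 and ABCC4 varied together (r = 0.751, rho = 0.661, adjusted permutation p of 0.000187 and 0.00206 over 8 pairs). Without the pair of libraries farthest from the ABCC2 median r was 0.526, within low numbers 0.854 and within high numbers 0.324. ABCC1 and ABCC6, neighbours on chromosome 3, gave r = 0.441 (adjusted permutation p = 0.0565), with 0.605 within low and 0.507 within high numbers. For ABCC11 and ABCC12 r was 0.22, and for ABCB1 and ABCB4, neighbours on chromosome 9, it was -0.227, with adjusted permutation p of 0.311 for both. Within low and high numbers these were 0.518 and 0.275 for the first pair and -0.396 and 0.0288 for the second.

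Regulators and targets linked to this group were also read. Of 8 genes of the NRF2 response, 5 had higher and 3 lower values in CF than in non-CF with a median log2 fold change of 0.06. For HET against WT, the contrast in which ABCC2 had its smallest p, all 8 had higher values with a median of 0.74, and 4 had an unadjusted p under 0.05, against 8.04% of all genes. For CF against WT all 8 were also higher, with a median of 0.37 and 1 under that limit, against 14.3% of all genes, and 0 were called by edgeR in either. These contrasts share the WT libraries, in which the summed level of the list was 481 to 1542 CPM, against 703 to 2454 in HET and 663 to 2106 in CF. Of 7 genes around the receptors PXR, CAR and AHR, 5 were tested, with 3 higher, 2 lower and a median of 0.02. In both lists 0 genes were called by edgeR for CF against non-CF, and 0 and 1 had an unadjusted p under 0.05, against 13.8% of all genes.

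All 4 members listed as mitochondrial had lower fitted values in CF, from -0.37 to -0.01 log2, and 0 were called. ABCB8, part of the mitochondrial ATP-sensitive potassium channel complex and linked to iron export, was at 45.1 to 61.0 CPM in WT, 33.1 to 70.1 in HET and 28.3 to 56.7 in CF. The medians were 53.4, 50.4 and 35.5. CF overlapped with both other labels, and 10 of 11 CF libraries were below the non-CF median of 53.4. Fitted log2 fold changes were -0.37 (SE 0.13, edgeR adjusted p = 0.188) against non-CF and -0.43 (SE 0.16, edgeR adjusted p = 0.193) against WT, and -0.34 within low and -0.41 within high numbers. Of 11 other genes of mitochondrial iron-sulfur and heme synthesis, 4 had higher and 7 lower values, with a median of -0.04 and 0 called.

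**Figure D4:**
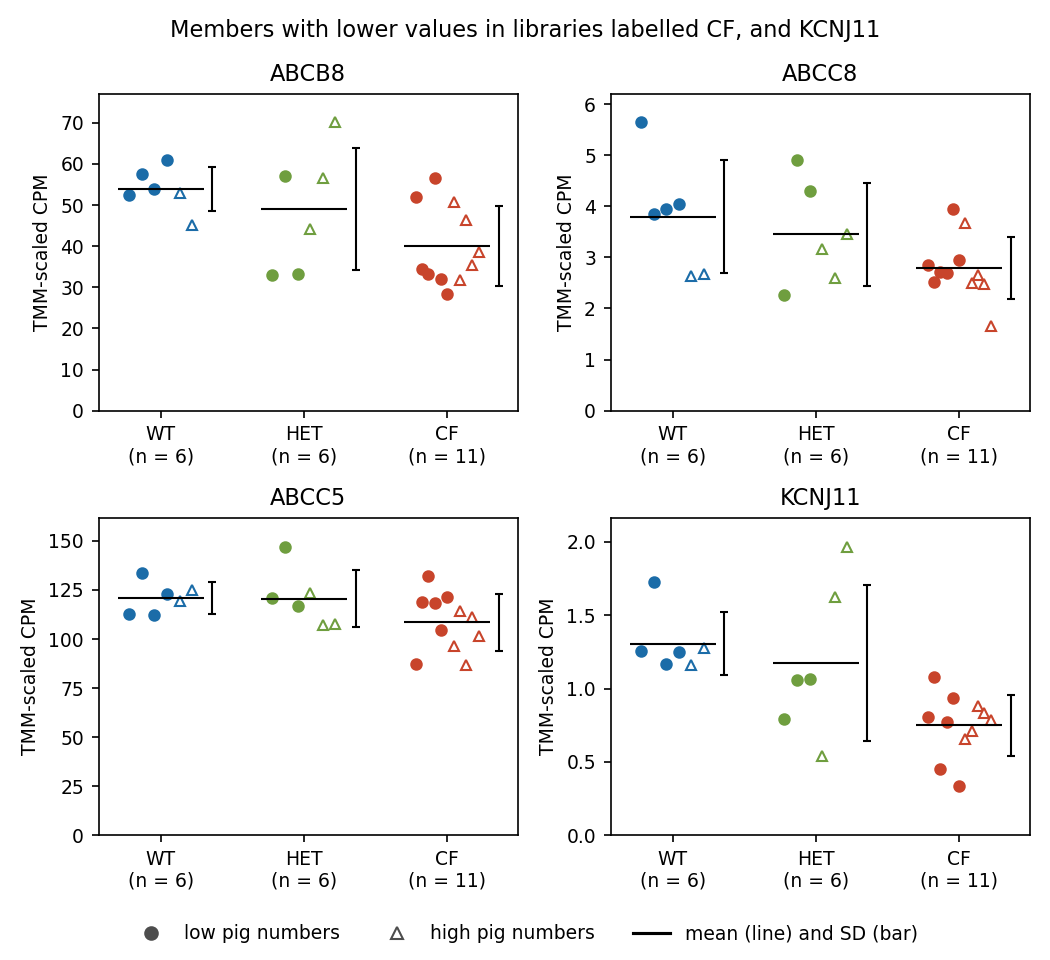
TMM-scaled CPM of ABCB8, ABCC8, ABCC5 and the channel gene KCNJ11 in each library by label, with filled circles for low and open triangles for high pig numbers. Lines are label means and bars SD; the CF means are the lowest in each panel (39.9, 2.79, 108 and 0.749 CPM), but CF points overlap with both other labels in the panels of ABCB8, ABCC8 and ABCC5.

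ABCC8 and ABCC9 are the sulfonylurea receptors, the regulatory subunits of ATP-sensitive potassium channels whose pores are KCNJ11 and KCNJ8. ABCC8, the receptor of pancreatic beta cells, was low in cortex. It was at 2.63, 2.68, 3.85, 3.94, 4.04 and 5.64 CPM in WT, at 2.27 to 4.91 in HET and at 1.66 to 3.95 in CF, where the median was 2.69. The labels overlapped, with 9 of 11 CF libraries below the non-CF median. The log2 fold change was -0.38 (SE 0.15, edgeR adjusted p = 0.233), and it was -0.49 within low and -0.16 within high numbers.

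KCNJ11, its usual pore partner, had 1.16 to 1.73 CPM in WT, 0.541 to 1.97 in HET and 0.338 to 1.08 in CF, which is 13 to 91 counts per library. Every CF library was below every WT library and below the non-CF median, and 0.139% of all genes had each WT library above each CF library. The log2 fold change was -0.73 (SE 0.19, edgeR adjusted p = 0.0787) against non-CF. Over the 23 libraries, r between ABCC8 and KCNJ11 was 0.304 (adjusted permutation p = 0.212), and it was 0.544 within low and 0.0966 within high numbers.

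ABCC9, the receptor of vascular smooth muscle and pericytes, was at 38.1 to 62.5 CPM in WT, 42.5 to 74.2 in HET and 41.2 to 93.4 in CF. Its log2 fold change was 0.15 (95% interval -0.11 to 0.41), and that of KCNJ8, its pore, 0.10 (-0.11 to 0.30). These genes varied together with r = 0.837 and rho = 0.821 (adjusted permutation p of 4e-05 for both). Within low numbers r was 0.892 and within high numbers 0.657, and it was 0.814 without the pair of libraries farthest from the ABCC9 median. Markers of mural and stromal cells had 3 higher and 2 lower values of 5 in CF, with a summed level of 643 to 1860 CPM in WT, 588 to 1076 in HET and 634 to 1746 in CF, and their part in the ABCC9 values was not tested.

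**Figure D5:**
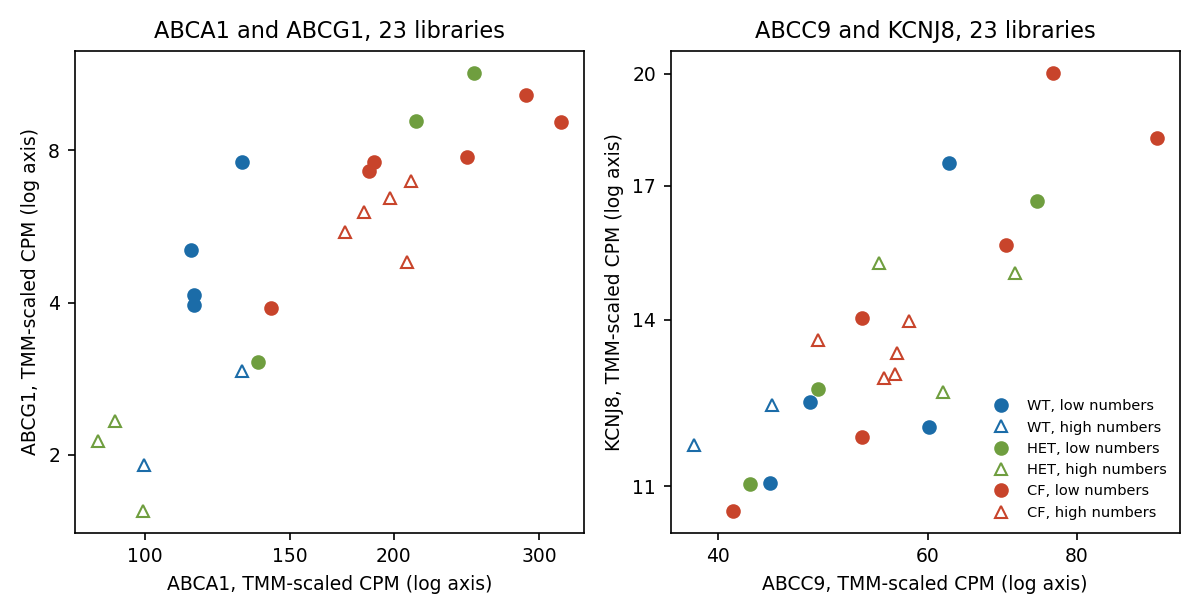
Levels of ABCA1 against ABCG1 (left) and ABCC9 against KCNJ8 (right) in 23 libraries, as TMM-scaled CPM on log axes, coloured by label with filled circles for low and open triangles for high pig numbers. In both panels points run from the lower left to the upper right (r = 0.865 and 0.837), and in the left panel the open triangles of CF lie apart from those of HET and WT.

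Distal tubule markers were read beside these values. Of 4 markers for distal tubule and the loop of Henle, 3 had lower values in CF at an unadjusted p under 0.05 (13.8% of all genes), UMOD, the uromodulin gene of the loop of Henle, was at 0.27 log2 (edgeR adjusted p = 0.558) and 0 were called. Their summed level was 1280 to 2039 CPM in WT, 1134 to 2165 in HET and 1086 to 1688 in CF. CALB1, the calbindin of distal tubule, gave a log2 fold change of -1.40 (edgeR adjusted p = 0.0620) and SLC12A3, its sodium chloride cotransporter, -0.64 (edgeR adjusted p = 0.0803). Their part in the values of ABCC8, KCNJ11 or ABCB8 was not tested. Proximal tubule markers, which identify the tissue as cortex, were abundant, with 7763 to 14700 CPM over 9 genes, and 0 of them were called. For CF against non-CF, 0 genes were called in the lists for collecting duct, podocyte, endothelial, lymphocyte, erythroid, nephron progenitor, adipose and adrenal cells. In each of these lists 0 to 2 genes had an unadjusted p under 0.05. For CF against HET all 7 erythroid markers had lower values, and 1 was called (edgeR adjusted p = 0.0433, 0.0192% of all genes called). For HET against WT all 7 erythroid markers had higher values and 0 were called.

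Peroxisomal members import fatty acyl-CoA for beta-oxidation. ABCD3 had a log2 fold change of -0.05 (95% interval -0.20 to 0.10), and ABCD2, a transporter of very long-chain acyl-CoA, -0.04 (-0.28 to 0.21). These intervals are for CF against non-CF and reached at most 0.28 log2 from 0. Other contrasts left more room. For CF against WT the interval of ABCD2 was -0.34 to 0.27, and within high numbers that of ABCD3 was -0.38 to 0.02. Among 16 other peroxisomal genes, 12 had higher and 4 lower values in CF with a median of 0.07, and 0 were called.

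Of the lysosomal members, ABCB9, a peptide transporter, had 1.80 to 3.14 CPM in WT, 1.23 to 2.74 in HET and 1.09 to 2.60 in CF, and a log2 fold change of -0.30 (SE 0.15, edgeR adjusted p = 0.396). It was -0.32 within low and -0.21 within high numbers, and -0.17 with HET alone as control for ABCB9. ABCD4, which brings cobalamin out of lysosomes, had 0.15 (95% interval -0.01 to 0.30). Its partner genes of cobalamin handling split into 3 higher and 3 lower of 6, with a median of -0.01 and 0 called. ABCB5, best known from stem cells of the limbus, stood in no list and had 0.14 (-0.14 to 0.42).

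The 4 soluble members act in translation. ABCE1 had a log2 fold change of 0.03 (95% interval -0.18 to 0.24), ABCF1 of -0.10 and ABCF3 of -0.02, and 0 were called. ABCF2 had 30.7 to 41.8 CPM in WT, 32.7 to 42.8 in HET and 28.2 to 41.8 in CF, with a change of -0.14 (SE 0.07, edgeR adjusted p = 0.389). For ABCF2 this was -0.06 within low and -0.25 within high numbers (unadjusted p = 0.0293, edgeR adjusted p = 0.267). For ABCE1 the fitted values had opposite signs in the number ranges, a difference that was not called. With low numbers CF libraries had 62.7 to 86.3 CPM and non-CF libraries 48.2 to 74.8. With high numbers CF libraries had 70.6 to 78.8 and non-CF libraries 75.1 to 98.8. The log2 fold changes were 0.23 (SE 0.10) and -0.21 (SE 0.12), and their difference of -0.44 (SE 0.16) had an unadjusted p of 0.00992 and an edgeR adjusted p of 0.302. Of 6 genes of ribosome rescue and the GCN2 pathway, 4 had higher and 2 lower values with a median of 0.02 and 0 called.

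Between number ranges, 0 of 38 members were called for a difference of the CF contrast, where 0.0192% of all genes were. At an unadjusted p under 0.05 there were 3, ABCG1, ABCE1 and ABCA5, against 10.4% of all genes. DESeq2 was not run on this contrast.

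TAP1 and TAP2 load peptides for antigen presentation and are ABC genes outside the symbol rule. TAP1 was at 16.3 to 26.0 CPM in WT, 18.2 to 27.3 in HET and 14.2 to 38.03 in CF, and TAP2 at 11.0 to 15.8, 11.4 to 22.8 and 8.25 to 19.7. Their log2 fold changes for CF against non-CF were -0.09 and -0.20 (edgeR adjusted p of 0.839 and 0.595). They varied together over libraries (r = 0.70, rho = 0.721, adjusted permutation p of 0.0003 and 0.0004; r = 0.600 without the pair farthest from the TAP1 median, 0.701 within low and 0.812 within high numbers).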

How the data were processed

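Total RNA of kidney cortex from 23 newborn pigs was sequenced as stranded, ribosomal RNA-depleted libraries. The authors pseudoaligned the reads to Sscrofa11.1 transcripts with kallisto and deposited, per library, estimated counts and TPM for each of 77689 transcripts. The deposited estimated counts are not normalized, and the deposited TPM values are the same estimates per effective length, with an equal sum in every library. Because 1 noncoding transcript took 42.1% to 53.2% of TPM, TPM was rescaled over mRNA transcripts for levels between genes.

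Estimated counts were summed per symbol and rounded, since 64% of transcript values were not whole. The 20880 genes with at least 10 counts in at least 12 libraries were fitted with edgeR 4.0.16 (R 4.3.3; TMM, quasi-likelihood test, Benjamini-Hochberg adjustment, limit 0.05), once for CF against non-CF, once with 3 labels and once with the pig number range and its interaction. Intervals are 95% t intervals of the fit. Correlations used log2 CPM with a prior count of 2, with the labels pooled. At these depths 3 counts are 0.0567 to 0.0912 CPM, and this limit covers counting error only. Upstream windows were read from the Sscrofa11.1 genome and RefSeq annotation, in which all 41 members were found.

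The study's methods name a Mann-Whitney U test on counts aggregated by gene; edgeR was used as the main test because the unit is counts, and the exact Mann-Whitney U test on TMM-scaled CPM was run beside it. Further alternatives were DESeq2 1.42.0, other normalizations and filters, counts rebuilt from TPM, the pig number range as a term or alone, WT or HET alone as control, and each library left out. The EIF1AY level as a covariate was chosen after seeing the data. Fits were tested on simulated counts. Python 3.11.15, numpy 2.4.6, pandas 2.3.3, scipy 1.17.1 and matplotlib 3.10.9 were used.

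Members and gene lists were chosen with earlier results of these data known. Values were given by label for the 10 members with the smallest p for CF against non-CF, the 3 with the smallest p in each other contrast, members called in any fit, the 10 highest, the highest per subfamily, the 3 of widest range, members under the filter, and CFTR, TAP1, TAP2 and genes of the fixed pairs. Other listed genes were picked for their p or role after their values were seen. Nothing in the labels states that libraries were technical repeats, and each is 1 pig, so p-values measure the spread between pigs. Values of 2 members and a sequence withheld for evaluation are not reported here; these members stay in the counts and sums but are not drawn in the figures.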

Additional observations from a re-analysis of the deposited data

Results flagged for a closer look

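ABCG1 was picked out because its change in libraries labelled CF differed between pig number ranges at an unadjusted p under 0.05, by 1.18 log2 (high minus low numbers). For ABCE1 that difference was -0.44 and for ABCA5 it was -0.39. None of the 3 passed adjustment over all genes (edgeR adjusted p of 0.258, 0.302 and 0.475). For a library far from the others of its label, 42 groups of 6 libraries were examined over the named members, and chance alone picks out about 1 in 20. In 2 groups one library stood apart. ABCB6 in WT pig 16 was at 73.7 CPM, where the WT median was 61.3. ABCG4 in HET pig 15 was at 0.659 CPM, where the HET median was 0.250. HET pig 15 also had the highest HET value of ABCA1, ABCA4 and ABCG1. Groups of 11 libraries were not examined.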

How the results depend on the processing

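Of 24 fold changes of single members followed under the alternatives, 0 changed direction. Among all 38 members tested, 17 changed sign under at least 1 of 35 alternatives for CF against non-CF, all with a log2 fold change of at most 0.17 in size. The count of called members by edgeR was 0 for CF against non-CF, the 3 label pairs, low pig numbers and the difference between number ranges, and 2 within high numbers. It moved for CF against non-CF to 2 with DESeq2 (2.31% of all genes called, against 0.35% by edgeR), 1 with the pig number range as a term (0.718%), 2 with high pig numbers only (2.3%), 1 with WT alone as control (0.34%) and 0 to 2 when each library was left out (above 0 in 3 of 23; 0.0862% to 0.977% of all genes). For CF against WT it moved to 3 with DESeq2 (2.75%), 2 with the pig number range as a term (1.03%) and 0 to 2 when each library was left out (above 0 in 7 of 23; 0.0958% to 1.17%). Within high numbers it was 1 to 2 (0.441% to 2.02% of all genes) and within low numbers 0 to 1 (0.0144% to 0.656%) when each library was left out, the 1 being ABCA5 without CF pig 1; these contrasts were followed after their calls were seen. The members called were ABCA1, ABCA4, ABCA5 and ABCG1, the last with high pig numbers only. The cause of these moves was not tested. For CF against HET, HET against WT and the difference between number ranges, the count was 0 under every alternative run, also when each library was left out. No paired analysis was possible because the labels give each pig a number of its own and the groups share none. The log2 fold change of ABCA1 for CF against non-CF ranged from 0.55 to 0.94 over 36 alternatives, that of ABCG1 from 0.28 (low numbers only) to 1.46 (high numbers only), and that of ABCA5 from 0.04 to 0.42. The median over members ranged from -0.05 to -0.01 when each library was left out and was 0.01 with high pig numbers only. Low counts limit ABCG4, KCNJ11 and ABCC8, and 6 WT libraries limit every contrast with that label.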
